A study of Mus musculus with 6 samples.

Results

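Collagen chain genes encode the polypeptides that make up the collagens, the most abundant structural proteins of the extracellular matrix. They were taken here as the protein-coding mouse genes whose symbol consists of Col, a number, the letter a and a number, such as Col4a1. Of the 42450 genes in the deposited table, 44 met this rule, and they were divided into 11 fibrillar chains, 6 basement membrane (type IV) chains and 27 others. Of the 44, 38 had enough counts to be tested, comprising 10 fibrillar, 6 basement membrane and 22 other chains.

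Collagen chains carry long runs of the Gly-X-Y repeat, in which glycine recurs at a fixed spacing, and chains assemble inside the endoplasmic reticulum into a coiled helix before they are secreted. Fibrillar collagens are trimmed outside the cell and packed into the crosslinked fibrils of skin, bone, tendon and cartilage, whereas type IV chains join end to end into the sheet-like network of basement membranes, the layer on which epithelia rest. Embryonic stem cells deposit basement membrane components as they begin to differentiate, and in the implanting embryo such a sheet separates the epiblast from the primitive endoderm.

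The libraries were made from total RNA of mouse embryonic stem cells (mESC), either of the male line E14tg2a.4 (WT, 3 libraries) or of line CG0630, an E14tg2a.4 derivative in which a gene-trap cassette truncates 1 allele of Srrm2 in its first exon (Srrm2+/-, 3 libraries). Srrm2 encodes a splicing factor and scaffold of nuclear speckles, and the comparison addresses what its reduced dose does to gene expression in pluripotent cells. Both lines were kept on gelatin-coated flasks with LIF and were moved to serum-free ESGRO medium before collection. The replicates were batches frozen at different passages, the Srrm2+/- line descends from 1 gene-trap clone, and the passage ranges of the lines did not overlap, so that genotype, clone and passage history cannot be told apart and p-values measure the spread between these cultures.

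Library totals lay between 54151433 and 69933421 estimated counts. Srrm2 was at 91.2, 98.3 and 97.7 CPM (counts scaled to the normalised library size) in the WT libraries and at 62.3, 56.2 and 59.6 CPM in the Srrm2+/- libraries (log2 fold change -0.69, SE 0.05, edgeR adjusted p = 2.38e-05), lower in every library labelled Srrm2+/- than in every WT library. The stem cell markers Pou5f1, Sox2, Nanog, Zfp42 and Esrrb were present in every library, at a summed 2908 to 3009 CPM in WT and 2389 to 2490 CPM in Srrm2+/- cells. In such bulk libraries, more cells of a kind and more RNA per cell cannot be told apart.

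Of the 38 chains tested, 17 were higher and 5 lower in Srrm2+/- cells at an edgeR adjusted p under 0.05, and the other 16 were not called. Across all 18905 genes tested, 13.6% were called higher and 11.7% lower, so the share of chains called higher (44.7%) stood above the background and the share called lower (13.2%) lay near it. The median log2 fold change (Srrm2+/- over WT) of the 38 chains was 0.42, beside -0.0025 for all genes tested. In CPM, 18 chains had all 3 Srrm2+/- libraries above all 3 WT libraries and 6 had them below, where 21.4% and 20.0% of all genes tested did so. Among the chains called higher, 15 had a log2 fold change of at least 1 and 6 one of at least 3, namely Col1a2, Col4a1, Col12a1, Col8a1, Col5a2 and Col4a2.

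**Figure D1:**
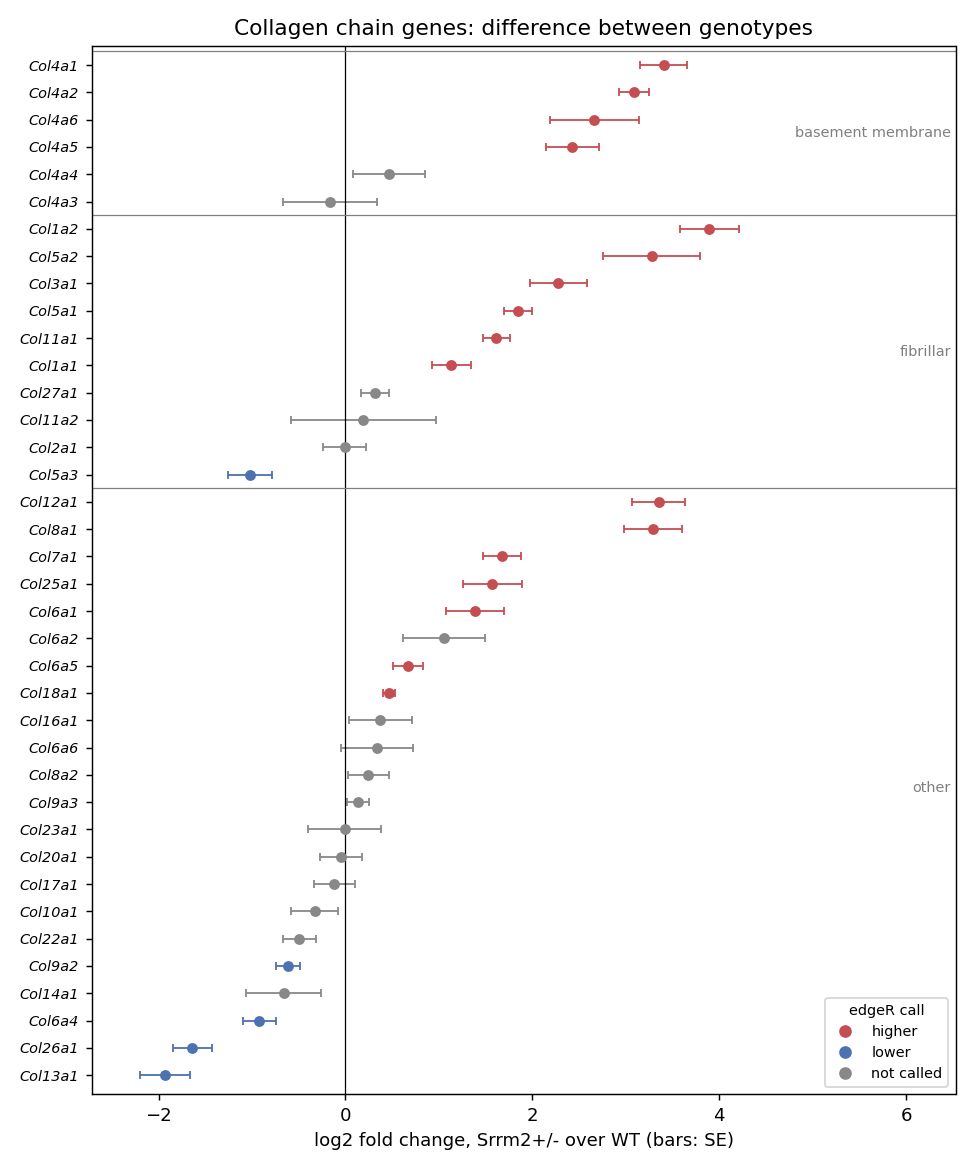
Log2 fold change (x axis, Srrm2+/- over WT) of each of the 38 collagen chain genes tested, grouped by class; points are edgeR estimates, bars are standard errors and colour marks the call at an adjusted p under 0.05. Col1a2 lies furthest to the right at 3.89 and Col13a1 furthest to the left at -1.93, and 17 chains are marked higher against 5 lower.

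By class, the counts were as follows. Of the fibrillar chains tested, 6 of 10 were called higher and 1 lower (median log2 fold change 1.37). Of the basement membrane chains, 4 of 6 were called higher and 0 lower (median 2.55). Of the remaining chains, 7 of 22 were called higher and 4 lower (median 0.19). Differences between classes were not tested.

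The sequences just upstream of the start sites are shown for 5 chains that were higher and 1 that was lower, since these stretches lie beside the genes with some of the larger differences and are very unlike one another in base composition. RefSeq promoter windows (GRCm38.p6, 250 bases before to 50 after the start) were at hand for 35 of the 44 chains. Each line gives the 250 bases before the start, 5′ to 3′ on the strand of the gene, for windows that hold no annotated exon, and capitals mark matches on either strand to the searched motifs TATAAA (the letters of the TATA box, at any position), GGGCGG (the GC box), CCAAT and CATTCC (the TEAD motif). The TATAAA of Col3a1 falls near the middle of its line and that of Col13a1 near the end far from the start. Whether either acts as a TATA box was not tested. Col3a1 lies at chr1:45311288-45311537 (plus strand), Col5a1 at chr2:27886175-27886424 (plus), Col11a1 at chr3:114030290-114030539 (plus), Col8a1 at chr16:57754738-57754987 (minus), Col4a6 at chrX:141474077-141474326 (minus) and Col13a1 at chr10:61979109-61979358 (minus).
Col3a1: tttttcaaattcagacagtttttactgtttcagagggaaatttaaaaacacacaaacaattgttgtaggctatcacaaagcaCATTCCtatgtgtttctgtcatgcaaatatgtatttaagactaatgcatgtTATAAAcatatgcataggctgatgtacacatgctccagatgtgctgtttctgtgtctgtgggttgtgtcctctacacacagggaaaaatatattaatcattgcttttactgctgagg
Col5a1: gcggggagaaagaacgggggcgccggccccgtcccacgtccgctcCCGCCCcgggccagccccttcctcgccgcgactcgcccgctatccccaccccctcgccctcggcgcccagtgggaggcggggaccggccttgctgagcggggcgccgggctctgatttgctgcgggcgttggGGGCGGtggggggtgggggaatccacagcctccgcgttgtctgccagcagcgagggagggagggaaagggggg
Col11a1: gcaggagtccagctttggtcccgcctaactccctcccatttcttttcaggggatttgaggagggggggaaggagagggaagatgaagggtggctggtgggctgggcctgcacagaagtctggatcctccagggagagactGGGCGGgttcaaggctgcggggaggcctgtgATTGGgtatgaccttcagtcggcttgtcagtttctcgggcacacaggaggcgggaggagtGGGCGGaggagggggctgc
Col8a1: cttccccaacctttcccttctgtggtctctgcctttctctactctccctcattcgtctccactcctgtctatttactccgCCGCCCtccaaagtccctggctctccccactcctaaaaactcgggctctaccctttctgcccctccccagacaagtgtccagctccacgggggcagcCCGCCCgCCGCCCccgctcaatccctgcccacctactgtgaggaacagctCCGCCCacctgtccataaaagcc
Col4a6: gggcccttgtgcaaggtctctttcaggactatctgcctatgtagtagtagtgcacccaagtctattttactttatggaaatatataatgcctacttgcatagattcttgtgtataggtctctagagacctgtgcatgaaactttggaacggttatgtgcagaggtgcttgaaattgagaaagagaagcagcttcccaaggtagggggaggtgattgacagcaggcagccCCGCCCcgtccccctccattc
Col13a1: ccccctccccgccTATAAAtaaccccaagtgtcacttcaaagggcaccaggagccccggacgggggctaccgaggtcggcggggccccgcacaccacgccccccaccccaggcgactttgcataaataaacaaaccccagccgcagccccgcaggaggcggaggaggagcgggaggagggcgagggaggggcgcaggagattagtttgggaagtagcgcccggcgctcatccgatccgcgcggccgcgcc

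Over the full window of 300 bases, G and C made up 37.7% of the Col3a1 promoter and 75.0% of the Col5a1 promoter, although both chains were higher. A GC box was found in 12 of the 14 chains called higher that had a window, in 3 of 4 called lower, in 7 of 11 not called, in 0 of 6 not tested and in 38.2% of all 27025 genes with a window. The windows of Col4a1 and Col4a2 overlap, and the GC box counted for Col4a1 lies in the part they share. CCAAT occurred in 8 of the 14 chains called higher, in 2 of the 4 called lower, in 2 of the 11 not called and in 1 of the 6 not tested, against 41.1% of all genes. TATAAA, searched at any position of the window, was found in Col3a1 alone among those 14, in Col13a1 among the 4 and in 3 of the 11 not called, against 15.7% of all genes. The CArG box, the motif of serum response factor, was in 0 of the 14 chains called higher, in 1 of the 4 called lower (Col6a4) and in 0 of the 11 not called, against 1.81% of all genes. TGANTCA, the AP-1 motif, was in 1 of the 14 (Col6a1) and in 0 of the 4 and 0 of the 11, against 8.97% of all genes. CATTCC was in 3 of the 14 (Col4a6, Col3a1 and Col18a1), 0 of the 4 and 2 of the 11 not called, against 16.6% of all genes. In Col4a6 the match is not wholly within the upstream bases shown, so it carries no capitals there. A gene with more than 1 window was counted once, and these matches describe letters only.

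Among the basement membrane chains, Col4a1 and Col4a2, which assemble with each other in nearly all basement membranes, had the largest differences. Col4a1 (ENSMUSG00000031502, chr8:11198423-11312826) was at 0.919, 2.04 and 2.17 CPM in the WT libraries and at 15.3, 20.4 and 18.7 CPM in the Srrm2+/- libraries, a mean of 1.71 ± 0.687 against 18.1 ± 2.60 (SD, n = 3 each). Its lowest Srrm2+/- library was far above its highest WT library, and the fitted difference was 3.40 ± 0.25 on the log2 scale (SE, edgeR adjusted p = 2.55e-05). Col4a2 (ENSMUSG00000031503, chr8:11312805-11449287) was at 1.14, 1.35 and 1.06 CPM in WT and at 8.64, 12.0 and 9.63 CPM in Srrm2+/- cells. The groups again stood wide apart, with a fitted difference of 3.09 ± 0.16 on the log2 scale (SE, edgeR adjusted p = 3.70e-06). The Col4a1 level per kilobase of exon divided by that of Col4a2 was 1.29 ± 0.545 in WT and 1.60 ± 0.110 in Srrm2+/- cells (SD, n = 3 each), with overlapping libraries, so no shift between the partner chains was detectable.

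Col4a5 and Col4a6, neighbouring X-linked chains that occur together in the basement membranes of skin, smooth muscle and oesophagus, were also higher. Col4a5 (ENSMUSG00000031274, chrX:141475385-141689234) was at 1.05, 0.502 and 0.747 CPM in WT and at 3.19, 5.26 and 3.89 CPM in Srrm2+/- cells (log2 fold change 2.43, SE 0.28, edgeR adjusted p = 0.000335). Col4a6 (ENSMUSG00000031273, chrX:141165403-141474076), whose upstream bases are shown above, was at 0.252, 0.0346 and 0.224 CPM in WT and at 0.853, 1.33 and 1.05 CPM in Srrm2+/- cells (log2 fold change 2.66, SE 0.48, edgeR adjusted p = 0.00377). In neither gene did the groups overlap, but Col4a6 rested on 14, 2 and 12 counts in WT, the middle value being under the floor of 3 counts per library, so the size of its difference is less certain than that of Col4a5. Col4a3 and Col4a4, which assemble with Col4a5 in the kidney glomerulus and are mutated in Alport syndrome, stayed between 0.138 and 0.632 CPM in all 6 libraries, with overlapping groups. Their log2 fold changes were -0.17 (SE 0.50) and 0.47 (SE 0.38), neither called, and the first changed sign when WT replicate 3 or Srrm2+/- replicate 1 was left out.

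Of the fibrillar chains, the components of types I, III and V collagen, which co-assemble in the mixed fibrils of skin and tendon, were higher with 1 exception. Col1a2 (ENSMUSG00000029661, chr6:4504814-4541544) was at 0.108, 0.259 and 0.224 CPM in WT and at 2.44, 3.84 and 2.59 CPM in Srrm2+/- cells, or 6 to 15 counts against 160 to 265. This was the largest log2 fold change of all chains tested (3.89, SE 0.32, edgeR adjusted p = 4.51e-05). Its partner in type I collagen, Col1a1 (ENSMUSG00000001506, chr11:94936224-94953042), was at 0.523, 0.484 and 0.504 CPM in WT and at 1.11, 1.23 and 0.972 CPM in Srrm2+/- cells (log2 fold change 1.13, SE 0.21, edgeR adjusted p = 0.00393). Both genes separated the groups, by unequal amounts. Per kilobase of exon, Col1a1 stood above Col1a2 in every WT library (ratios 9.15, 3.53 and 4.26) and below it in every Srrm2+/- library (0.863, 0.607 and 0.710). With the length of the longest transcript the ratios were smaller, at 4.36, 1.68 and 2.03 in WT and 0.411, 0.289 and 0.338 in Srrm2+/- cells, with the same direction in every library. Most type I collagen holds more of the Col1a1 chain than of the Col1a2 chain.

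Col3a1 (ENSMUSG00000026043, chr1:45311538-45349706), the chain of type III collagen in skin and vessel walls, was at 0.685, 0.450 and 0.429 CPM in WT and at 1.66, 3.35 and 2.59 CPM in Srrm2+/- cells (log2 fold change 2.28, SE 0.30, edgeR adjusted p = 0.000743). Its exons overlap those of Gm47302 on the same strand, so that counts could be divided between them. Col5a1 (ENSMUSG00000026837, chr2:27886425-28039514), a type V chain that helps to start fibrils, was at 1.59, 2.04 and 1.44 CPM in WT and at 5.92, 6.18 and 6.16 CPM in Srrm2+/- cells. The Srrm2+/- libraries lay close together and well above WT (log2 fold change 1.85, SE 0.15, edgeR adjusted p = 3.87e-05). Col5a2 (ENSMUSG00000026042, chr1:45374321-45503282), which joins Col5a1 in type V collagen, was at 0.342, 0.208 and 0.0187 CPM in WT and at 1.42, 2.25 and 1.94 CPM in Srrm2+/- cells (log2 fold change 3.28, SE 0.52, edgeR adjusted p = 0.00194). The last WT value was 1 count, and the estimate was 2.76 without WT replicate 3 and 3.99 without WT replicate 1.

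Col11a1 (ENSMUSG00000027966, chr3:114030540-114220718), a type XI chain best known from cartilage that can also pair with type V chains, was at 2.58, 2.68 and 2.30 CPM in WT and at 6.50, 8.92 and 7.76 CPM in Srrm2+/- cells (log2 fold change 1.62, SE 0.14, edgeR adjusted p = 6.39e-05). The groups were again separate. The exception was Col5a3 (ENSMUSG00000004098, chr9:20770050-20815067), another type V chain, at 1.53, 1.90 and 1.23 CPM in WT and 0.881, 0.609 and 0.810 CPM in Srrm2+/- cells. It was lower without overlap (log2 fold change -1.02, SE 0.23, edgeR adjusted p = 0.0118), so that the 3 type V chains did not move one way. Col2a1, the main chain of cartilage fibrils, had a log2 fold change of -0.01 (SE 0.23), Col11a2 one of 0.19 (SE 0.77) with 0 counts in WT replicate 3, and Col27a1 one of 0.31 (SE 0.15). None of these 3 was called, though all Srrm2+/- libraries of Col27a1 lay above WT, and the signs of Col2a1 and Col11a2 turned when single libraries were left out. Col24a1, the remaining fibrillar chain, had 0 counts in the WT libraries and 0, 9 and 6 counts in the Srrm2+/- libraries and was not tested.

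**Figure D2:**
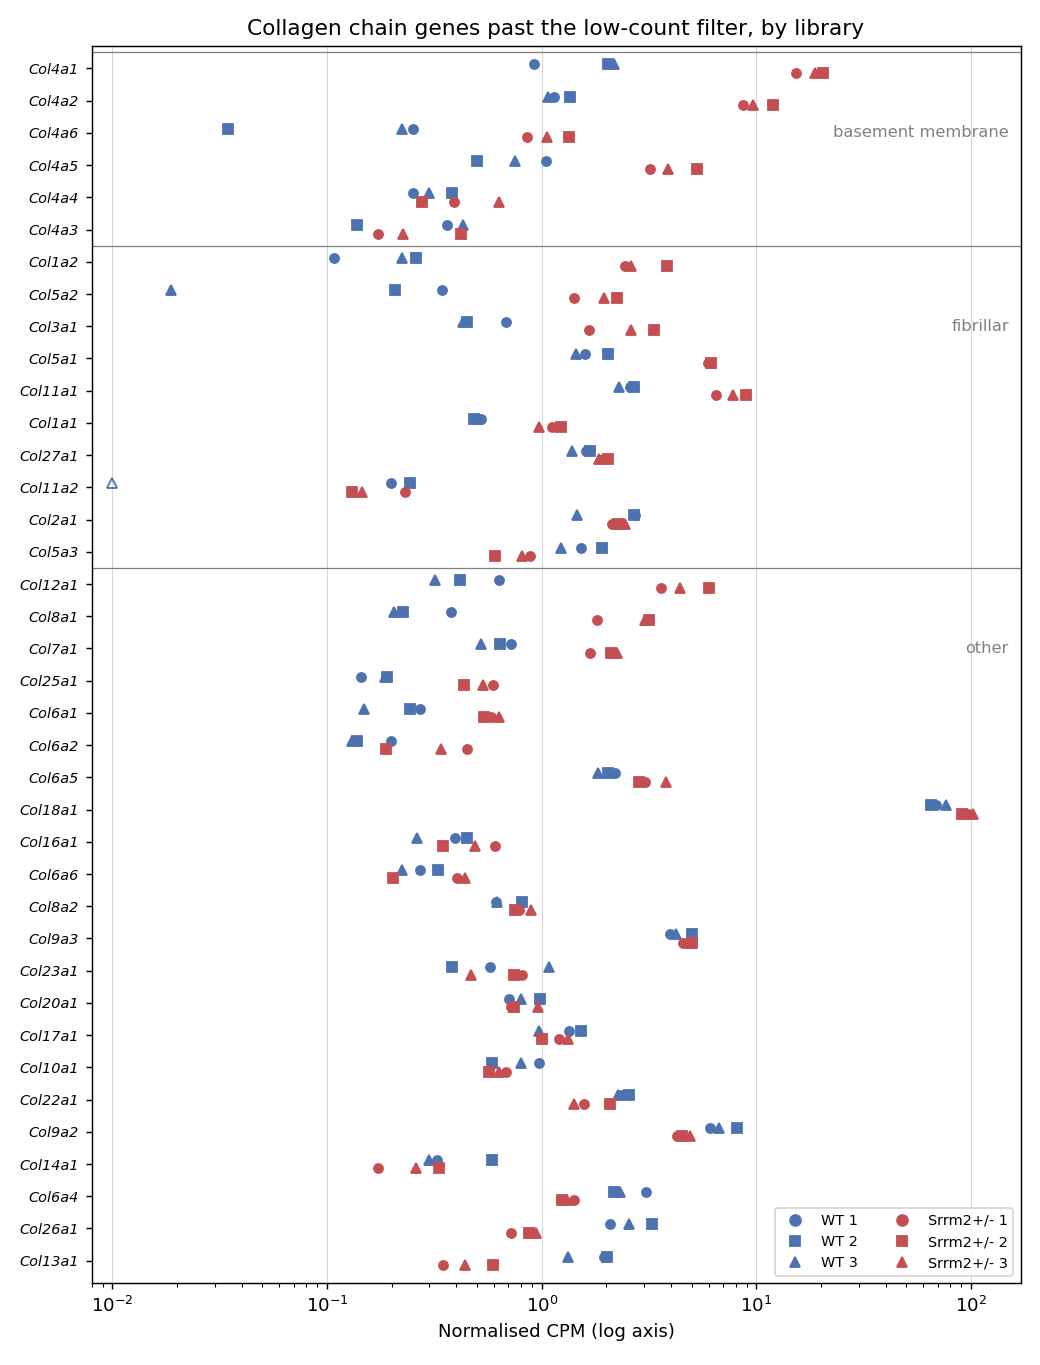
Normalised CPM (x axis, log) of the 38 collagen chain genes tested in each of the 6 libraries, grouped by class, with WT in blue and Srrm2+/- in red and marker shape giving the replicate. The open triangle at the left edge stands for the 0 counts of Col11a2 in WT replicate 3, Col18a1 lies above all other chains in both groups, and Col4a1 and Col4a2 lie at 0.919 to 2.17 CPM in WT and at 8.64 to 20.4 CPM in Srrm2+/- cells.

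Among the other chains, Col12a1 and Col8a1 had the largest differences. Col12a1, which decorates the surface of type I fibrils, was at 0.631, 0.415 and 0.317 CPM in WT and at 3.58, 6.02 and 4.41 CPM in Srrm2+/- cells (log2 fold change 3.35, SE 0.28, edgeR adjusted p = 5.35e-05). Col8a1, a short chain that forms hexagonal lattices in vessel walls and the cornea, was at 0.378, 0.225 and 0.205 CPM in WT and at 1.81, 3.15 and 3.03 CPM in Srrm2+/- cells (log2 fold change 3.29, SE 0.31, edgeR adjusted p = 0.000112). Both had Srrm2+/- libraries well above every WT library. Col8a2, which can join Col8a1 in the same lattice, was not called (log2 fold change 0.24, SE 0.22). Per kilobase, Col8a1 divided by Col8a2 was 0.235 ± 0.105 in WT and 1.89 ± 0.535 in Srrm2+/- cells (SD, n = 3 each), without overlap between the groups.

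Col7a1, the anchoring fibril chain that fastens the epidermal basement membrane to the dermis, was at 0.721, 0.640 and 0.523 CPM in WT and at 1.68, 2.10 and 2.25 CPM in Srrm2+/- cells (log2 fold change 1.67, SE 0.21, edgeR adjusted p = 0.000464). Col25a1, a membrane-anchored collagen of neurons, was at 0.144, 0.190 and 0.187 CPM in WT and at 0.592, 0.435 and 0.535 CPM in Srrm2+/- cells (log2 fold change 1.57, SE 0.31, edgeR adjusted p = 0.00646). Neither gene's groups overlapped, although Col25a1 rested on only 8 to 11 counts per WT library. Col18a1, a basement membrane collagen whose end is released as endostatin, was the most abundant chain by far, at 68.9, 65.2 and 76.2 CPM in WT and 96.6, 91.1 and 102.3 CPM in Srrm2+/- cells. Its difference was small beside those of the 4 type IV chains called higher but passed the test (log2 fold change 0.46, SE 0.06, edgeR adjusted p = 0.000942).

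The type VI chains, which form the beaded filaments around cells, were split. Col6a1 was at 0.270, 0.242 and 0.149 CPM in WT and at 0.578, 0.537 and 0.632 CPM in Srrm2+/- cells (log2 fold change 1.39, SE 0.31, edgeR adjusted p = 0.0113). Its obligate partner Col6a2 had a log2 fold change of 1.05 (SE 0.44) that was not called, with 1 Srrm2+/- library inside the WT range. Col6a5 was at 2.20, 2.04 and 1.83 CPM in WT and at 3.02, 2.83 and 3.79 CPM in Srrm2+/- cells (log2 fold change 0.67, SE 0.16, edgeR adjusted p = 0.0149), a call that was lost without Srrm2+/- replicate 3 (log2 fold change 0.53, edgeR adjusted p = 0.0588). Its neighbour Col6a4 was lower instead, at 3.06, 2.18 and 2.32 CPM in WT and 1.42, 1.25 and 1.31 CPM in Srrm2+/- cells (log2 fold change -0.93, SE 0.18, edgeR adjusted p = 0.00508). Per kilobase, Col6a5 divided by Col6a4 went from 0.738 ± 0.101 in WT to 2.20 ± 0.365 in Srrm2+/- cells (SD, n = 3 each), without overlap. Col6a6, the other chain that can take the place of Col6a3, was not called (log2 fold change 0.34, SE 0.38), and Col6a3 itself had at most 4 counts in any library.

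Besides Col5a3 and Col6a4, 3 chains were lower. Col13a1, a transmembrane collagen of the neuromuscular junction, was at 1.95, 2.01 and 1.33 CPM in WT and at 0.347, 0.595 and 0.438 CPM in Srrm2+/- cells (log2 fold change -1.93, SE 0.26, edgeR adjusted p = 0.000862). Col26a1, a short collagen described in testis and ovary, was at 2.09, 3.25 and 2.54 CPM in WT and at 0.723, 0.870 and 0.940 CPM in Srrm2+/- cells (log2 fold change -1.64, SE 0.21, edgeR adjusted p = 0.000596). In both, the highest Srrm2+/- library was below the lowest WT library. Col9a2, a type IX chain of cartilage, was at 6.11, 8.15 and 6.70 CPM in WT and at 4.26, 4.51 and 4.89 CPM in Srrm2+/- cells (log2 fold change -0.62, SE 0.13, edgeR adjusted p = 0.00729). Its partner Col9a3, among the most abundant chains in both groups, was at 3.96, 4.999 and 4.22 CPM in WT and at 4.57, 5.003 and 4.93 CPM in Srrm2+/- cells. The groups overlapped and the gene was not called (log2 fold change 0.14, SE 0.12, edgeR adjusted p = 0.466). Per kilobase, Col9a3 divided by Col9a2 was 0.507 ± 0.0142 in WT and 0.853 ± 0.0417 in Srrm2+/- cells (SD, n = 3 each), so the balance between these partner chains differed by much more than its spread. Col9a1, the remaining type IX chain, had only 2, 0 and 0 counts in WT and 0, 0 and 1 in Srrm2+/- cells. Exons of Col9a3 overlap those of Tcfl5 on the opposite strand, and whether this affected its counts was not tested.

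The other chains tested were not called, and most of their groups overlapped. They comprised the fibril-associated chains Col16a1 (log2 fold change 0.37), Col20a1 (-0.05), Col22a1 (-0.50) and Col14a1 (-0.66), the membrane-anchored Col23a1 (-0.01) and Col17a1 (-0.12), and Col10a1 (-0.33), the network-forming chain of growth-plate cartilage. Col22a1 had its Srrm2+/- libraries below all WT libraries without passing the test (edgeR adjusted p = 0.0737), and it was called without Srrm2+/- replicate 2 (log2 fold change -0.67, edgeR adjusted p = 0.0276). Col15a1, Col19a1, Col28a1 and Col9a1, like Col24a1 and Col6a3, had at most 10 counts in any library and were not tested, and Col28a1 had 0 counts in all 6. At the depth of these libraries, 3 counts correspond to between 0.0434 and 0.0560 CPM, so changes below that level were not detectable.

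Summed over each class, the basement membrane (type IV) chains reached 3.96, 4.45 and 4.93 CPM in WT and 28.5, 39.7 and 34.1 CPM in Srrm2+/- cells, a ratio of means of 7.67. This class leaves out Col18a1, itself a basement membrane collagen, which was counted among the remaining chains. Col4a1 and Col4a2 held most of the type IV sum in Srrm2+/- cells, with means of 18.1 and 10.1 CPM out of 34.1. The fibrillar chains summed to 11.9, 12.6 and 8.98 CPM in WT and 24.2, 30.9 and 27.4 CPM in Srrm2+/- cells, a ratio of 2.46. The remaining chains without Col18a1 gave 29.5, 32.8 and 27.8 CPM in WT and 30.04, 34.5 and 34.5 CPM in Srrm2+/- cells, a ratio of 1.10 with overlapping groups. Thus the type IV and fibrillar sums stood apart between the groups, while the third sum, without Col18a1, did not. With Col18a1 included, that class summed to 98.4, 98.0 and 104.0 CPM in WT and 126.6, 125.7 and 136.8 CPM in Srrm2+/- cells. Those sums did not overlap between the groups, with a ratio of 1.30. The share of Col18a1 in all collagen CPM was 60.5% ± 3.98 in WT and 50.6% ± 3.79 in Srrm2+/- cells (SD, n = 3 each), even though Col18a1 itself was higher. Per kilobase of merged exons its share was 55.8% ± 4.09 and 51.2% ± 3.37 (SD, n = 3 each), with overlapping libraries.

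**Figure D3:**
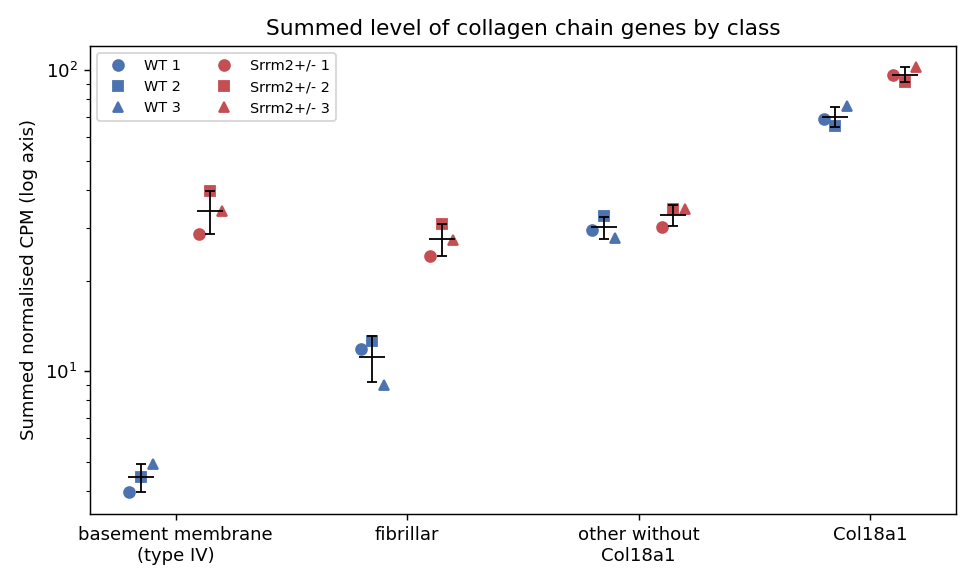
Summed normalised CPM of the collagen chain genes of each class, and of Col18a1 on its own, in each library (y axis, log; points), with group means and SD (black bars, n = 3). The basement membrane (type IV) sum goes from a mean of 4.45 to 34.1 CPM and the fibrillar sum from 11.2 to 27.5 CPM, whereas the points of the other chains without Col18a1 overlap.

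Per kilobase of merged exons, a scale on which different chains can be set side by side, the order of levels differed between the groups. In WT cells Col18a1 came first with 9.98 ± 0.797 CPM per kilobase, followed by Col9a2 with 2.26 ± 0.339 and Col9a3 with 1.14 ± 0.140 (SD, n = 3), and these 3 did not overlap with their neighbours in the order. Below them Col13a1 (0.382), Col26a1 (0.321) and Col6a4 (0.295) overlapped with one another, and Col4a1 stood at 0.229 ± 0.0920. That lower order depended on the length used, since per kilobase of the longest transcript Col26a1 (0.945 ± 0.211) stood above Col13a1 (0.556 ± 0.119) and Col6a4 (0.342 ± 0.0646) without overlap. In Srrm2+/- cells Col18a1 was again first (13.8 ± 0.793), and Col4a1 was next with 2.43 ± 0.349. Col4a2 (1.52 ± 0.260) and Col9a2 (1.47 ± 0.103) then overlapped, ahead of Col9a3 (1.25 ± 0.0605), Col5a1 (0.717 ± 0.0166) and Col4a5 (0.613 ± 0.157). Col1a2, with the largest fold change, reached a mean of 0.238 CPM per kilobase of merged exons and 0.553 per kilobase of the longest transcript.

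Several chain genes lie next to each other, and neighbours did not always go the same way. Col4a1 and Col4a2 start head to head on chromosome 8, with annotated ends that overlap by 22 bp on opposite strands, and both were higher. Col4a6 and Col4a5 start head to head on chromosome X, 1308 bp apart, and were higher as well. The third such pair, Col4a4 and Col4a3 on chromosome 1, starts 71 bp apart and was not called in either gene. Col3a1 and Col5a2, which end towards each other 24614 bp apart on chromosome 1, were both higher. On chromosome 9, Col6a6, Col6a5 and Col6a4 follow each other on the same strand with gaps of 27917 and 28810 bp, and were not called, higher and lower in that order. Col6a2 and Col6a1 lie 85161 bp apart on chromosome 10, with Col6a1 alone called.

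**Figure D4:**
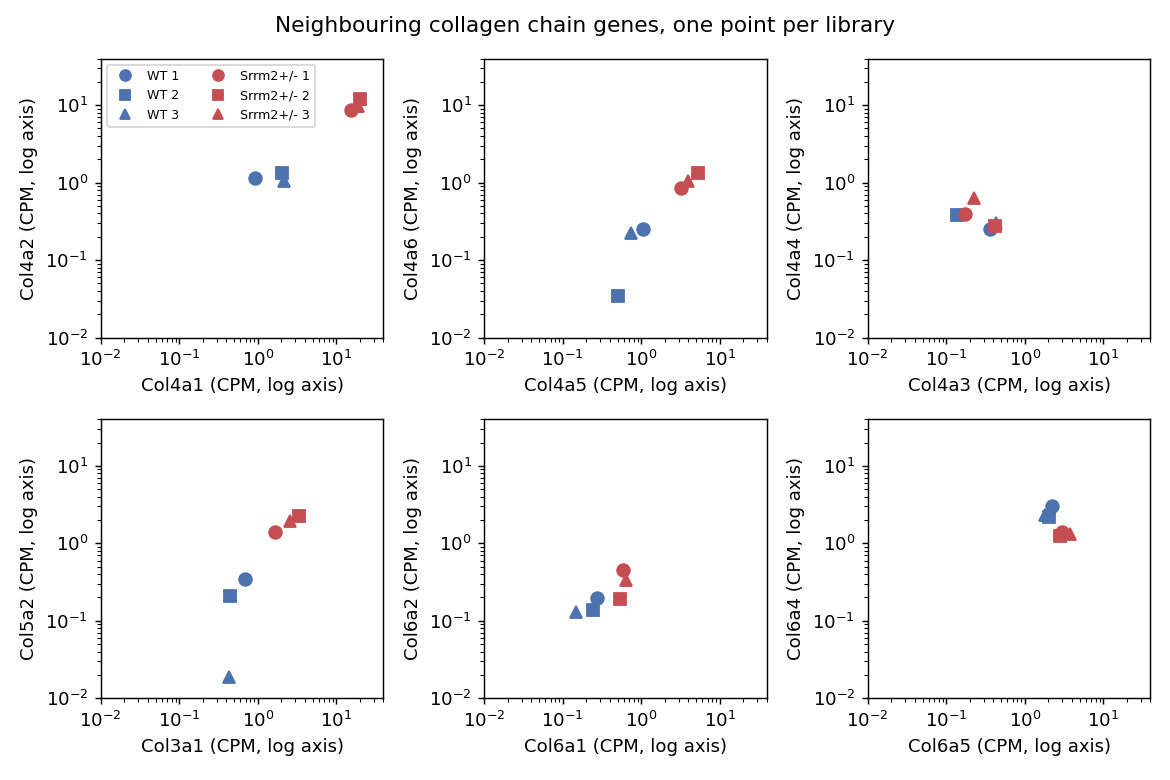
Normalised CPM of 1 chain gene against that of its neighbour (log axes) for 6 neighbouring pairs, with a point per library, WT in blue and Srrm2+/- in red. The groups stand apart on both axes for Col4a1 with Col4a2, Col4a5 with Col4a6 and Col3a1 with Col5a2, mix for Col4a3 with Col4a4, and lie apart in opposite directions for Col6a5 with Col6a4.

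The genes that modify, secrete, trim, crosslink, bind and degrade collagen were examined as 6 lists with 57 members, of which 49 were tested, 18 were called higher and 9 lower, against the 13.6% and 11.7% of all genes given above. Their median log2 fold change was 0.21. Of 16 chain modification and folding genes tested, 4 were higher (Serpinh1, Fkbp10, P3h4 and Plod2) and 4 lower (Fkbp14, Crtap, Colgalt1 and P3h1), with a median of 0.05. Serpinh1, the chaperone HSP47 that binds procollagen, was at 26.4, 23.0 and 19.7 CPM in WT and at 42.7, 60.7 and 38.0 CPM in Srrm2+/- cells (log2 fold change 1.03, SE 0.17, edgeR adjusted p = 0.00233). P4hb, the most abundant gene of that list and a subunit of prolyl 4-hydroxylase, was at 295.1 to 298.0 CPM in WT and 296.2 to 310.9 CPM in Srrm2+/- cells and was not called (log2 fold change 0.02, SE 0.04). Among 6 secretion genes, Mia3, which loads procollagen into transport carriers, was higher (0.15, SE 0.04) and the coat component Sec23a lower (-0.25, SE 0.04), with no other call.

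Propeptide removal was divided. Bmp1, the proteinase that trims the ends of fibrillar procollagens, was at 1.15, 0.554 and 0.243 CPM in WT and at 6.91, 8.29 and 6.43 CPM in Srrm2+/- cells (log2 fold change 3.46, SE 0.38, edgeR adjusted p = 0.000261, and 4.16 without WT replicate 1). Pcolce2, an enhancer of that cleavage, was at 41.6, 43.5 and 41.3 CPM in WT and at 19.4, 20.1 and 21.7 CPM in Srrm2+/- cells (log2 fold change -1.05, SE 0.06, edgeR adjusted p = 4.20e-06). Thus the proteinase was higher and its enhancers Pcolce2 and Pcolce (-0.64, SE 0.06) were lower, as was Adamts14 (-0.66, SE 0.14). Exons of Pcolce overlap those of Fbxo24 on the same strand and of Gm36266 on the opposite strand. Whether this affected the Pcolce counts was not tested. The summed level of the list went from a mean of 78.1 to 50.9 CPM, a sum in which Pcolce and Pcolce2 outweigh Bmp1.

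Of 6 crosslinking genes, 4 were higher and 0 lower (median 1.30). Pxdn, the peroxidase that forms the sulfilimine bonds of the type IV network, was at 3.19, 3.25 and 3.92 CPM in WT and at 18.7, 19.2 and 14.7 CPM in Srrm2+/- cells (log2 fold change 2.34, SE 0.13, edgeR adjusted p = 4.80e-06). The lysyl oxidase family, which crosslinks collagen and elastin, had Loxl4 (1.85, SE 0.27), Loxl1 (0.97, SE 0.19) and Loxl2 (0.76, SE 0.15) higher, while Lox was not called on low counts (1.62, SE 0.59, edgeR adjusted p = 0.0758). Of 8 collagen receptors tested, 3 were higher and 0 lower (median 0.24). Ddr1, a receptor tyrosine kinase that binds collagens including type IV, was at 6.47, 6.05 and 6.96 CPM in WT and at 16.7, 15.6 and 16.8 CPM in Srrm2+/- cells (log2 fold change 1.34, SE 0.08, edgeR adjusted p = 5.91e-06). The endocytic receptor Mrc2 (1.22, SE 0.23) and the integrin subunit Itgb1, the most abundant gene of the list (0.56, SE 0.04), were the other members called. The collagen-binding alpha subunits Itga1, Itga2 and Itga10 and the fibrillar collagen receptor Ddr2 were tested and not called. Itga11, a further such alpha subunit, was not tested. It had 6, 2 and 1 counts in WT and 19, 23 and 10 in Srrm2+/- cells, without overlap between the groups in CPM.

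All 6 turnover genes tested were called, 5 higher and 1 lower (median 1.30). The type IV collagenases Mmp2 (1.15, SE 0.15) and Mmp9 (1.52, SE 0.27), the membrane-bound Mmp14 (0.46, SE 0.07) and the inhibitors Timp2 (1.73, SE 0.16) and Timp3 (1.46, SE 0.12) were higher, whereas the inhibitor Timp1 was lower (-0.46, SE 0.12). Timp2 was at 0.883, 0.865 and 0.952 CPM in WT and at 2.69, 3.29 and 2.98 CPM in Srrm2+/- cells. Timp1, the most abundant gene of the list, was at 17.2, 24.4 and 22.6 CPM in WT and at 16.3, 15.9 and 14.4 CPM in Srrm2+/- cells, and its call was lost when any of WT replicates 2 and 3 and Srrm2+/- replicates 2 and 3 was left out (edgeR adjusted p between 0.0542 and 0.0773).

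**Figure D5:**
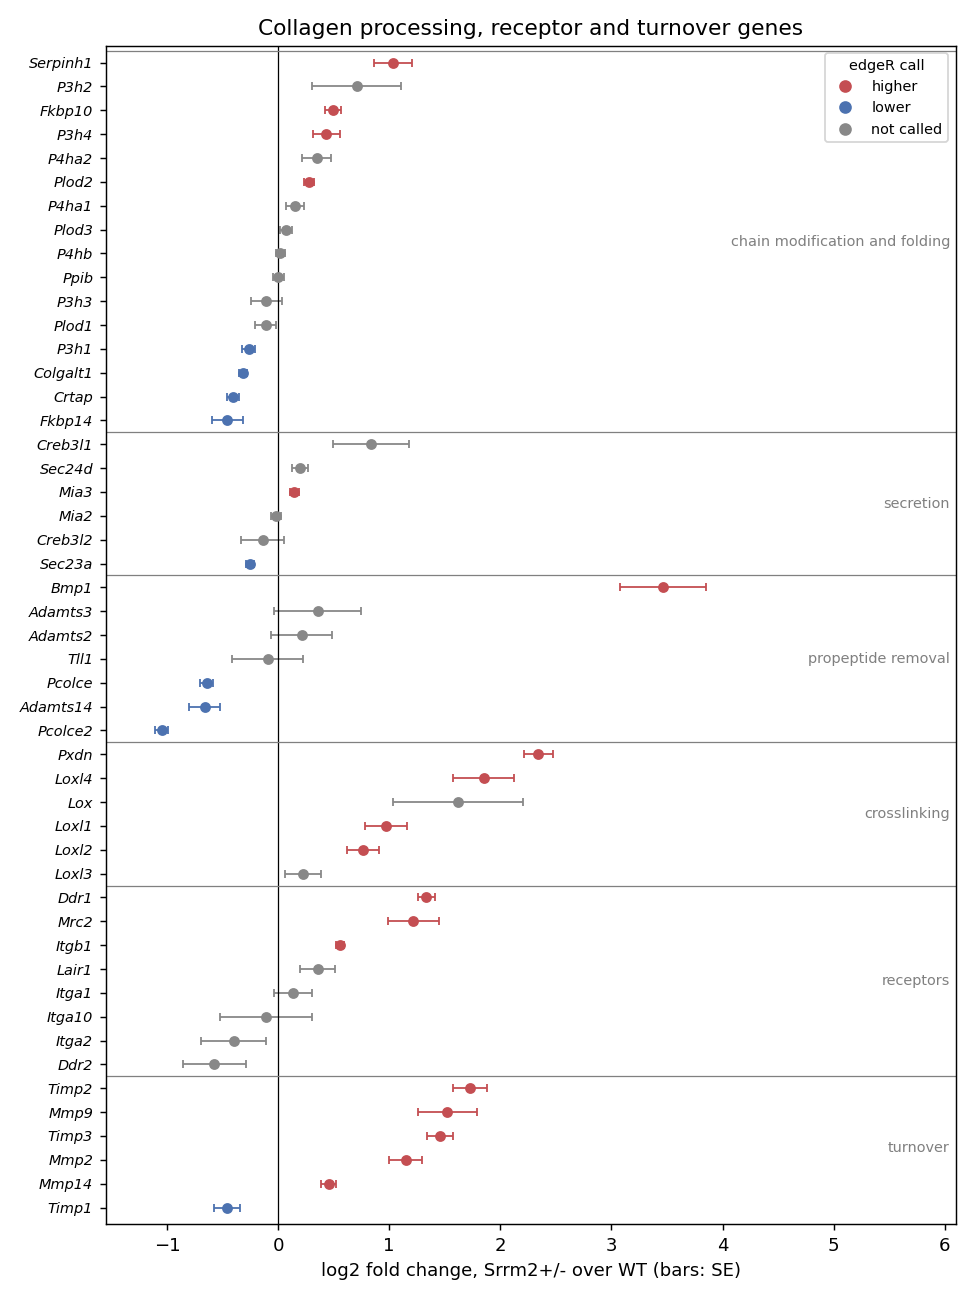
Log2 fold change (x axis, Srrm2+/- over WT) of the 49 collagen processing, receptor and turnover genes tested, in 6 lists; points are edgeR estimates, bars are standard errors and colour marks the call at an adjusted p under 0.05. Bmp1 at 3.46 and Pxdn at 2.34 lie furthest to the right, Pcolce2 at -1.05 furthest to the left, and chain modification genes fall on both sides of 0.

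Markers of other cells that make collagen were measured beside these results. Of 7 fibroblast or mesenchyme markers 5 were tested and 2 were higher, Prrx1 (log2 fold change 1.82) and Twist1 (1.12), and the summed list went from 4.29 to 4.60 CPM in WT to 6.01 to 6.45 CPM in Srrm2+/- cells. Thy1 (-0.70), Pdgfra (-0.39) and Pdgfrb (0.23) were not called. The matrix-defining markers of that list were near 0, with 0 counts of Dcn in WT and 2 to 4 in Srrm2+/- cells and at most 3 counts of Lum in any library. Primitive and parietal endoderm make much type IV collagen, and of their 6 markers 4 were tested and 1 was higher, Dab2 (1.34), with summed levels of 1.90 to 2.46 CPM in WT and 2.38 to 3.38 CPM in Srrm2+/- cells. Gata6 (0.95), Gata4 (-0.0038) and Sox7 (-0.77) were not called, with the Sox7 libraries of Srrm2+/- cells all below those of WT, and Sox17 and Foxa2 had at most 9 counts in any library. Of 5 endothelial markers 4 were tested, with Kdr higher (3.34), Pecam1 (-0.43) and Tek (-0.59) lower and at most 1 count of Cdh5. Pecam1 was at 86.7 to 90.6 CPM in the WT libraries, where Cdh5 had 0 counts, so its difference cannot be read as one of endothelial cells. Of the 4 cartilage markers, 0 were called. Of the 5 stem cell markers 4 were lower, with Nanog at -0.72. Among the 17 chains called higher, Srrm2+/- replicate 2 gave the highest value for 12, replicate 3 for 4 and replicate 1 for 1. With that library left out, 17 chains were called higher. The part of other cell types in the collagen differences was not tested.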

How the data were processed

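Total RNA libraries from 3 WT and 3 Srrm2+/- cultures (TruSeq Stranded kit, paired-end reads of 75 bases) were grouped by their sample titles. The authors pseudo-aligned reads with Kallisto 0.46.1 to the mouse GENCODE transcriptome (release M24) and deposited estimated counts per gene, not normalised. The strand setting was not given in the sources used here, and exons of 10 chain genes overlap another gene on the opposite strand and those of 3 on the same strand. Gene names and positions came from GENCODE release M21 (GRCm38), which matched 42156 of 42450 identifiers. At most 5.35% of the 31-base words of any chain gene occur in another gene.

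Estimated counts were rounded, filtered with filterByExpr (minimum count 10, minimum total 15) and tested with edgeR 4.0.16 (TMM, quasi-likelihood, two-sided, genotype as sole term). P-values were adjusted by Benjamini-Hochberg over the 18905 genes tested, and a gene was called under 0.05. The standard error was the size of the log2 fold change divided by the square root of F. The floor of 3 counts per library covers counting error only. Only the edgeR, limma voom and DESeq2 fits were tested on simulated data, with the spread taken from these libraries. Alternatives were RLE and upper quartile scaling, DESeq2 1.42.0, limma voom (3.58.1), 2 other low-count filters, a replicate block and leaving out each library.

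Per-library values were given for called chains whose mean log2 CPM or log2 fold change was 1 or more in size and for the 3 most abundant chains, and for Col6a4 and low chains added after their values were seen. Of the other lists, members called with a log2 fold change of 1 or more in size and the most abundant member were named, and further members after their values were seen. The members and lists were chosen with earlier results of these data known. Protein features of the chains were not analysed here.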

Additional observations from a re-analysis of the deposited data

How the results depend on the processing

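The number of chains called higher was 17 and called lower 5 under RLE and upper quartile scaling, DESeq2, limma voom and a filter asking for 1 count in total. When each library of a group had to reach 1 CPM, 13 chains were called higher and 5 lower, fewer chains being tested. Leaving out 1 library at a time gave 16 to 17 higher and 5 to 6 lower. With a replicate block, 17 chains were called higher and 5 lower, and of the processing, receptor and turnover genes 17 and 8 instead of 18 and 9. Over the left-out libraries those lists had 16 to 19 higher and 6 to 8 lower, the lowest of both without WT replicate 2. Deviations of same-numbered libraries from their group means correlated at -0.0285, -0.0337 and -0.0300, and 0 of 6 libraries correlated best with their own number. No effect common to same-numbered libraries was thus seen, although these values cannot show that they shared no handling step. Of the 22 called chains, 21 kept their call in every setting that tested them, the exception being Col6a5 (0.53 without Srrm2+/- replicate 3, edgeR adjusted p = 0.0588). The ratio of summed CPM moved between 7.04 and 8.29 for the type IV chains and between 2.25 and 2.64 for fibrillar chains when a library was left out.

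The log2 fold changes that turned sign all belonged to genes that were not called, and the cause was not tested. With limma voom, Col2a1 was 0.0349 and Col23a1 0.11. With the replicate block they were 0.0319 and 0.0714, and with the filter of 1 count in total Col23a1 was 6.1e-05. With 1 library left out at a time, values ran from -0.62 to 0.14 for Col4a3, from -0.37 to 0.75 for Col11a2, from -0.24 to 0.14 for Col2a1, from -0.28 to 0.0297 for Col17a1, from -0.18 to 0.0987 for Col20a1, from -0.29 to 0.50 for Col23a1 and from -0.00069 to 0.0350 for P4hb. With the longest transcript in place of merged exons, Col18a1 stood at 12.5 CPM per kilobase in WT and 17.3 in Srrm2+/- cells and stayed first, while Col26a1 went from 0.321 to 0.945 in WT, and in Srrm2+/- cells Col1a2 went from 0.238 to 0.553, Col11a1 from 0.606 to 1.01, past Col5a1 and Col4a5, and Col9a3 (1.59) moved ahead of Col4a2 (1.56).

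Depth limits the low chains: Col4a6, Col5a2, Col25a1, Col6a1 and Col1a2 rest on 19 or fewer counts per WT library, and with 3 cultures per group differences smaller than the spread between cultures were not detectable.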
